A study of Mus musculus with 51 samples.

Results

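Small leucine-rich proteoglycans (SLRPs) are secreted matrix proteins whose core is built from leucine-rich repeats. The 9 genes described here are Dcn, Lum, Bgn, Fmod, Aspn, Ogn, Omd, Prelp and Podn. They were chosen by name from the family and are 9 of the 19938 genes measured. Each gene was read by 1 probe set that names no other gene.

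SLRP core proteins lie along collagen fibrils and affect how fibrils assemble and how thick they grow. Many members carry chondroitin or dermatan sulfate chains (decorin, biglycan) or keratan sulfate chains (lumican, fibromodulin, osteomodulin), and several bind growth factors of the TGF-beta family. In bone marrow and fetal hematopoietic tissue, stromal cells are the usual source of such matrix, in which hematopoietic stem and progenitor cells (HSPCs) are held.

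The study profiled mouse stromal cell lines that differ in how well they maintain HSPCs in culture, on Affymetrix mouse gene 1.0 ST arrays. It has 51 arrays in 17 groups of 3, each hybridised from 100 ng of total RNA. Of these, 13 groups are confluent lines and 4 are sorted stroma. Nothing in the labels says that the 3 arrays of a group are independent cultures. Each p-value is therefore read against array-to-array spread, which may be technical, and 3 arrays a group limit the precision.

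The lines labelled supportive were UG26.1B6, AM14-1C4 and AM30-3F4 from the aorta-gonad-mesonephros region (AGM), AFT024 and 2012 from fetal liver, BMC9 and 14F1-1 from adult bone marrow, and OP9 from fetal calvaria. The lines labelled less supportive were UG26.3B5 (AGM) and BMC10 (bone marrow), and those labelled non-supportive were BFC012, BFC and AFT011 (fetal liver). AGM lines came from (CBAxC57BL/10)F1 embryos at day 11, fetal liver lines from C57BL/6 embryos at day 14.5, BMC9 and BMC10 from H2ts6 mice, 14F1-1 from BALB/c mice and OP9 from (C57BL/6xC3H)F2-op/op mice. Most lines grew at 33 °C. All 14F1-1 arrays and replicates 1 and 2 of OP9 are labelled 37 °C, and replicate 3 of OP9 is labelled 33 °C. Each line is a single clone or line, so a difference between 2 lines cannot be told apart from a difference between clones. In the sorted groups, AFT024 or BFC012 was grown with KLS cells (bone marrow cells that are c-Kit+, Sca1+ and lineage-negative; AFT024+KLS, BFC012+KLS) or without them (AFT024-KLS, BFC012-KLS), and stroma lacking CD45, which marks leukocytes, was sorted on day 4.

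By their array quantiles the deposited log2 signals fall into 4 normalization sets, so levels are compared only within a set: the 2 UG26 lines, AFT024, BFC012, BMC9 and BMC10; OP9 and BFC; the sorted groups; and 14F1-1, 2012, AFT011 and the 2 AM lines. Between 6 and 8 of 8 fibroblast and stroma markers lay above the median gene of their set in every group. None of 7 endothelial markers did in any group, and of 12 hematopoietic markers 1 did in AM14-1C4 and 0 in the other groups. Of 8 epithelial and mesothelial markers, between 1 (each AM line) and 6 (BFC012) did. Of 6 macrophage markers, 2 did in BMC9 and 1 in every other group. In bulk RNA, fewer cells of a type and less RNA per cell cannot be told apart. In sorted stroma, replicate 1 stood apart from replicates 2 and 3 by over 1 log2 unit in 520 genes (AFT024-KLS), 657 genes (BFC012-KLS) and 381 genes (AFT024+KLS).

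Most members lie in family clusters in the genome (GRCm38.p6, RefSeq). The genes on chromosome 13 are Aspn (probe set 10405047) at chr13:49544443-49567565, Omd (probe set 10405058) at chr13:49582462-49592612 and Ogn (probe set 10405063) at chr13:49608015-49624501. Those on chromosome 10 are Dcn (probe set 10365974) at chr10:97479500-97518163 and Lum (probe set 10365983) at chr10:97565501-97572703, and those on chromosome 1 are Prelp (probe set 10357870) at chr1:133910304-133930102 and Fmod (probe set 10349947) at chr1:134037254-134048280. The others are Podn (probe set 10514939) at chr4:108014793-108031954 and Bgn (probe set 10600169) at chrX:73483601-73495936. Aspn, Omd and Ogn are neighbours on chromosome 13, with Ecm2 beside them, and 14.9 kb part Aspn from Omd and 15.4 kb part Omd from Ogn. Dcn and Lum lie 47.3 kb apart on chromosome 10, next to Kera and Epyc. Prelp and Fmod lie 107 kb apart on chromosome 1. The 250 bases before the RefSeq start were available for 7 of the 9 genes. They are shown for the 3 neighbours on chromosome 13, which varied together across lines, and for Bgn, whose signal set 14F1-1 apart from the other lines of its set. Capitals mark TATAAA on either strand in the first 3 and GGGCGG on either strand in Bgn, and all 4 genes lie on the plus strand (Aspn chr13:49544193-49544442, Omd chr13:49582212-49582461, Ogn chr13:49607765-49608014, Bgn chrX:73483351-73483600).

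Aspn: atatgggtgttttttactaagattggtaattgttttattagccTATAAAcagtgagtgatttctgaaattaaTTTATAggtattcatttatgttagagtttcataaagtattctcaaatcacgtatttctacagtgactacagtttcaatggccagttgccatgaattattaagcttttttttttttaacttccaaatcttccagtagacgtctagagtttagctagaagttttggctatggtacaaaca

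Omd: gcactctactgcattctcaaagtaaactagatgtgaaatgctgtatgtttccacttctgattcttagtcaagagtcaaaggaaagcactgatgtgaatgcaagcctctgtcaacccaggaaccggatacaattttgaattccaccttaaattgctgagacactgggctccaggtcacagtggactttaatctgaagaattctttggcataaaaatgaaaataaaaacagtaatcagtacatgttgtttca

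Ogn: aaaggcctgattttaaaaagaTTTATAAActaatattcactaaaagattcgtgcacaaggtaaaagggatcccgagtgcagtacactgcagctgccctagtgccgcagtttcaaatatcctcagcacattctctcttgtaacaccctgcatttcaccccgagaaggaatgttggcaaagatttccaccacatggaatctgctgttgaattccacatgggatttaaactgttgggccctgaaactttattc

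Bgn: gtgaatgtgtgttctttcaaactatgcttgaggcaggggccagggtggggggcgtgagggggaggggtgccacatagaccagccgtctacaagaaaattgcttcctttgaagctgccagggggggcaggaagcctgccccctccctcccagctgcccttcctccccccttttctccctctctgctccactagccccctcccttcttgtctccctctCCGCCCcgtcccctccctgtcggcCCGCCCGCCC

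TATAAA occurred in 12.4% of 32841 promoter windows of this length, and GGGCGG in 32.7%. Aspn held 2 TATAAA matches, which began 207 and 178 bases before the start. Ogn held 2 overlapping matches, which began 229 and 227 bases before it, and Omd held 0. Bgn held 3 GGGCGG matches, of which 2 overlap. The GC content was 30% in Aspn, 38.4% in Omd, 42% in Ogn and 64.4% in Bgn, against a median of 52.4% over all windows. These matches describe the letters of the windows only.

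Dcn encodes decorin, a collagen-binding core protein that also binds TGF-beta. The main comparison took 5 pairs of a supportive and a less or non-supportive line, each within a set: UG26.1B6 and UG26.3B5, AFT024 and BFC012, BMC9 and BMC10, OP9 and BFC, and 2012 and AFT011. In 4 of these 5 pairs Dcn was lower in the supportive line, with differences between -4.08 and -1.06 on the log2 scale. OP9 and BFC also differ in tissue and strain, and in temperature for replicates 1 and 2 of OP9, and these cannot be told apart. The labels do not say whether BFC and BFC012 are the same line, so their pairs may not be independent. In fetal liver lines of the first set, Dcn read 8.22, 7.69 and 8.38 in AFT024, against 10.51, 10.59 and 11.27 in BFC012. All AFT024 arrays lay below all BFC012 arrays, and the difference was -2.69 (SE 0.18), 6.47-fold lower (limma, adjusted p = 1.6e-14). In BMC9 it read 6.65, 6.44 and 6.49, against 7.89, 8.52 and 8.59 in BMC10, with no overlap (difference -1.81, SE 0.18, adjusted p = 9.6e-10).

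The widest of the 5 pairs was OP9 and BFC, where Dcn read 3.99, 4.37 and 4.12 in OP9 and 8.16, 8.19 and 8.37 in BFC. Every OP9 array lay below every BFC array, a difference of -4.08 (SE 0.18, 16.9-fold lower, adjusted p = 2.1e-19). The OP9 mean, 4.16, lay just above the first quartile of all genes in that set, 4.07, and replicate 1 of OP9 lay under it. In 2012 it read 9.85, 9.57 and 9.42, against 10.88, 10.65 and 10.49 in AFT011, and the groups did not overlap (difference -1.06, SE 0.18, adjusted p = 1.4e-05). The AGM pair overlapped, with 6.20, 6.28 and 6.42 in UG26.1B6 and 6.28, 5.97 and 6.44 in UG26.3B5 (difference 0.07, SE 0.18, adjusted p = 0.871).

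Dcn also differed between lines that share the supportive label. It read 9.14, 9.05 and 9.16 in AM14-1C4 and 5.92, 5.90 and 5.99 in AM30-3F4 (adjusted p = 2.3e-16). In 14F1-1 it read 5.84, 5.94 and 5.61, lower than in 2012 (adjusted p = 9.8e-19). The means of AM30-3F4 and 14F1-1 lay under the first quartile of all genes in their set, 5.98. Where a mean lies under that quartile, a fold is given only as a lower bound, with the dim arrays raised to the quartile, a limit chosen after the data were seen. On that limit Dcn was at least 8.78-fold higher in AM14-1C4 than in AM30-3F4 and at least 12.4-fold lower in 14F1-1 than in 2012. Lines outside the 5 pairs differed more in some cases, by -4.88 in 14F1-1 against AFT011 (adjusted p = 7.3e-22) and by -4.49 in UG26.1B6 against BFC012 (adjusted p = 1.4e-20). Within the first set the order of means was BFC012, BMC10, AFT024, BMC9, UG26.1B6 and UG26.3B5. The steps below BFC012 and below AFT024 passed the test and the other 3 did not. Among 14F1-1, 2012, AFT011 and the AM lines the order was AFT011, 2012, AM14-1C4, AM30-3F4 and 14F1-1, and all steps but the last passed.

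Markers of epithelium and mesothelium averaged lower in the line with lower Dcn in each pair below where Dcn passed, save the AM lines. Their mean over 8 genes lay between 7.02 and 7.14 in AFT024 arrays, against 7.99 to 8.25 in BFC012 arrays. It lay between 7.04 and 7.31 in 2012, against 8.19 to 8.22 in AFT011, and between 4.86 and 4.99 in OP9, against 5.47 to 5.56 in BFC. Of these 8 genes, 2 were higher and 4 lower in AFT024 than in BFC012, 1 was higher and 4 lower in 2012 than in AFT011, and 0 were higher and 4 lower in OP9 than in BFC. Of all genes, 28.5%, 27.6% and 34.4% passed in these pairs, in that order. Upk3b, a mesothelial marker, differed by -4.79 on the log2 scale between AFT024 and BFC012, and Wt1 by -2.21. Msln, another mesothelial marker, went the other way there, with a difference of 2.30.

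In the bone marrow pair 0 markers were higher and 2 lower, the median difference was 0.02, and the mean lay between 6.66 and 6.77 in BMC9, against 7.06 to 7.14 in BMC10. In the AGM pair, where Dcn did not pass, the mean lay between 7.28 and 7.35 in UG26.1B6, against 7.21 to 7.34 in UG26.3B5, with 0 markers higher and 1 lower. Between the AM lines, where Dcn was higher in AM14-1C4 by 3.18, the mean lay between 6.79 and 6.88 in AM14-1C4, against 6.87 to 7.0 in AM30-3F4, with 0 higher and 1 lower. It lay between 6.89 and 6.95 in 14F1-1, against 7.04 to 7.31 in 2012, with 0 higher and 1 lower. Of all genes, 15.5% passed in the bone marrow pair and 8.56% in the AGM pair. The share was 31.6% between the AM lines and 36.6% between 14F1-1 and 2012. Any link of these markers to the Dcn differences was not tested.

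**Figure D1:**
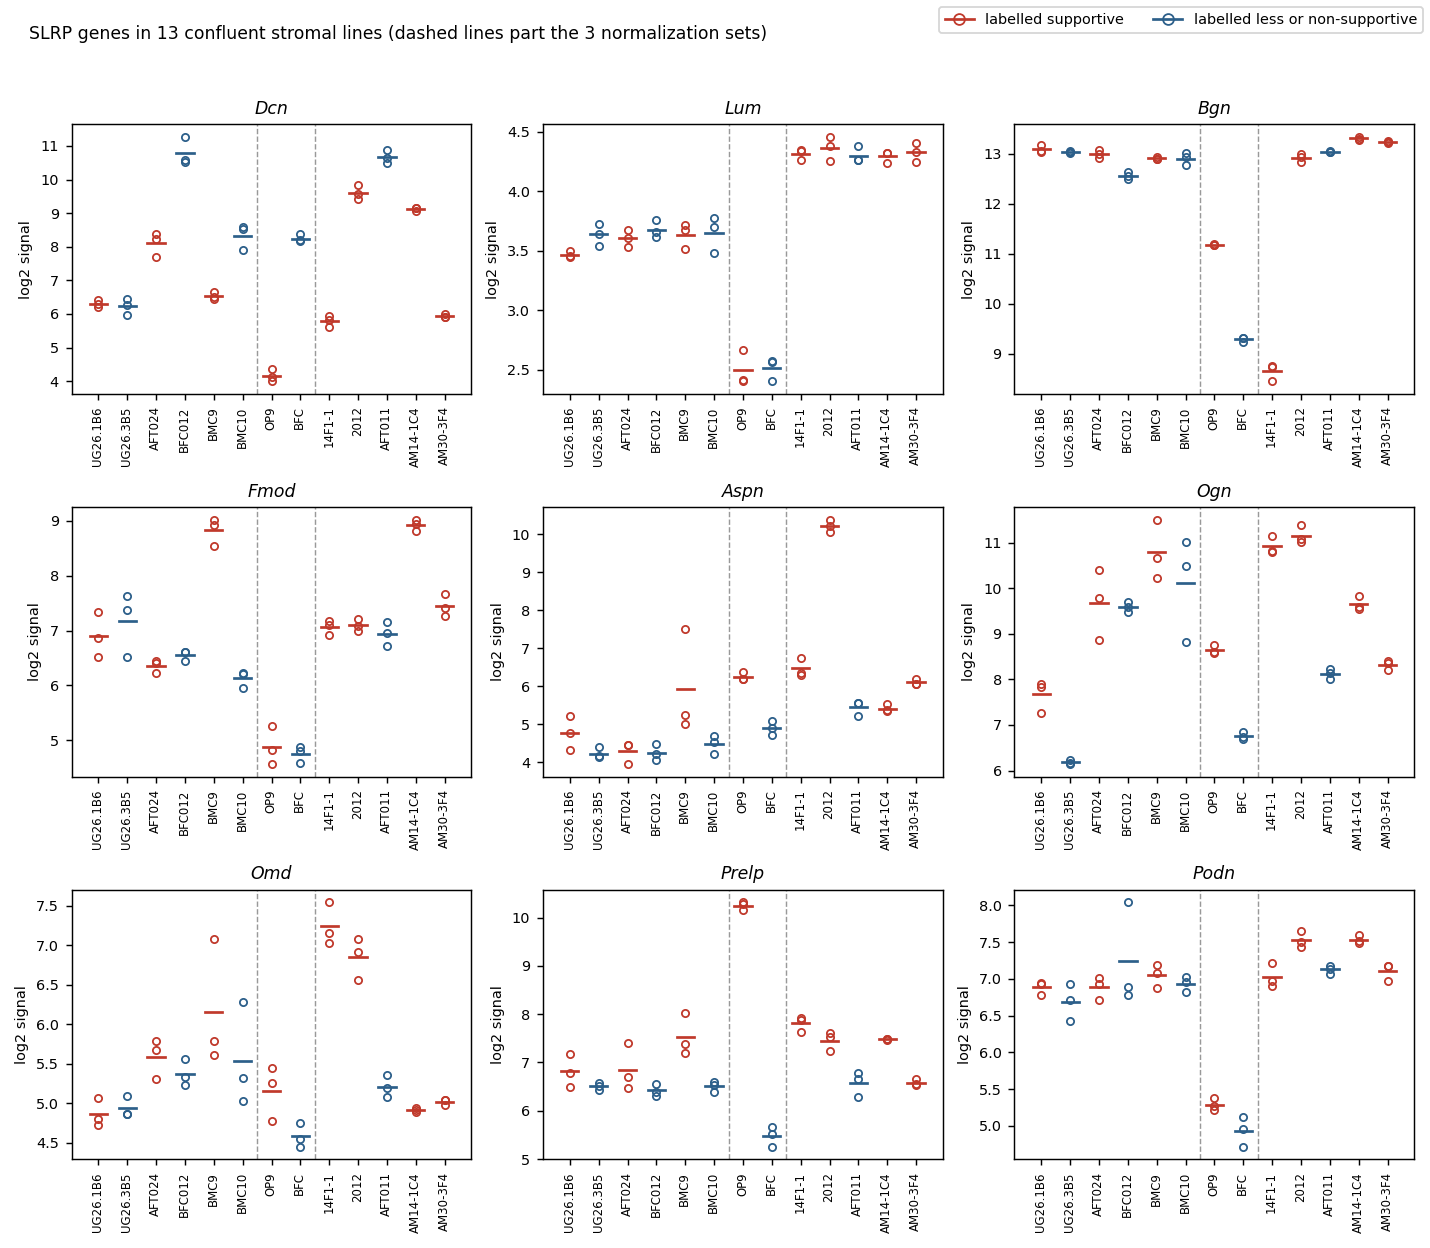
Log2 signal of each SLRP gene (vertical axis) on every confluent array (circles) with the mean of each line (bar), in 13 lines (horizontal axis) coloured by labelled support. Dashed lines part the normalization sets, between which levels are not comparable; Dcn sits between 3.99 and 4.37 in OP9, against 8.16 to 8.37 in BFC.

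Bgn encodes biglycan, the nearest relative of decorin, which can also signal through Toll-like receptors when released. Its signal was high and narrow in the first set, between 12.50 and 13.18 on all 18 arrays. AFT024 read 13.08, 12.91 and 12.99, against 12.64, 12.54 and 12.50 in BFC012, and the groups did not overlap. The difference was small, 0.44 (SE 0.07), and passed the test (adjusted p = 6.1e-06).

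In OP9, Bgn read 11.19, 11.18 and 11.17, against 9.24, 9.32 and 9.33 in BFC, 3.69-fold higher (adjusted p = 3.8e-21). The line 14F1-1 stood far below its set, with 8.75, 8.75 and 8.45, against 12.84, 12.99 and 12.93 in 2012. That was a difference of -4.27 (SE 0.07), 19.3-fold lower (adjusted p = 7.5e-31). The other lines of that set read between 12.84 and 13.34. 14F1-1 differs from 2012 in tissue, strain and temperature, and these cannot be told apart.

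Aspn encodes asporin, a relative of decorin that binds collagen and TGF-beta. In 2012 it read 10.07, 10.39 and 10.22, against 5.56, 5.23 and 5.57 in AFT011. The difference was 4.78 (SE 0.32, adjusted p = 7.8e-14). AFT011 lay under the first quartile of its set, so Aspn was at least 19.0-fold higher in 2012. No array of another line of that set exceeded 6.75. In OP9 it read 6.19, 6.38 and 6.19, against 5.09, 4.72 and 4.89 in BFC, 2.56-fold higher with no overlap (adjusted p = 0.001).

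In BMC9, Aspn read 7.51, 5.0 and 5.24, against 4.68, 4.54 and 4.21 in BMC10. The groups did not overlap, and replicate 1 of BMC9 stood above its mates. The difference was 1.44 (SE 0.32, adjusted p = 0.00152), with BMC10 and replicates 2 and 3 of BMC9 under the first quartile of the set, 5.72. It was 0.64 without that array (adjusted p = 0.0168), and adjusted p was 0.216 when the fit held only the arrays of those 2 lines. Replicate 1 of BMC9 was the highest of its group for 8 of the 9 members, and replicate 3 of BMC10 was the lowest of its group for 8.

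Ogn encodes osteoglycin, also called mimecan, a small member first studied in bone. In UG26.1B6 it read 7.27, 7.90 and 7.84, against 6.23, 6.14 and 6.17 in UG26.3B5. Every UG26.1B6 array was higher, by 1.49 on average (SE 0.33, 2.81-fold, adjusted p = 0.00243), and Ogn was the only member that passed in that pair. In OP9 it read 8.58, 8.76 and 8.60, against 6.69, 6.86 and 6.73 in BFC, 3.70-fold higher (adjusted p = 1.8e-05).

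In 2012, Ogn read 11.01, 11.38 and 11.08, against 8.23, 8.01 and 8.14 in AFT011, 8.16-fold higher with no overlap (adjusted p = 6.4e-09). In AFT024 it read 10.41, 9.79 and 8.86, against 9.59, 9.48 and 9.70 in BFC012, and the groups overlapped (difference 0.09, SE 0.33, adjusted p = 0.898). In BMC9 it read 11.51, 10.22 and 10.66, against 11.02, 10.49 and 8.82 in BMC10, with overlap (difference 0.68, SE 0.33, adjusted p = 0.187). The bone marrow lines and both fetal liver lines of the first set were all above both UG26 lines, and the step to UG26.1B6 passed the test.

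Omd encodes osteomodulin, or osteoadherin, a keratan sulfate proteoglycan of mineralising matrix. In 2012 it read 6.57, 7.08 and 6.91, against 5.19, 5.08 and 5.36 in AFT011, with no overlap (difference 1.64, adjusted p = 4.4e-06). AFT011 lay under the first quartile of its set, so Omd was at least 1.83-fold higher in 2012. In 14F1-1 it read 7.03, 7.54 and 7.16, overlapping 2012 (adjusted p = 0.262). In the other 4 of the 5 pairs Omd did not pass, with differences between -0.07 and 0.62. Among lines outside those pairs it was higher in 14F1-1 than in AFT011 by 2.03 (adjusted p = 3.7e-08). Both UG26 lines were lower than BMC9, with differences of -1.29 for UG26.1B6 (adjusted p = 1.4e-04) and -1.22 for UG26.3B5 (adjusted p = 2.7e-04). BFC012 was lower than BMC9 too (difference -0.78, adjusted p = 0.0157). BMC9 read 7.08, 5.62 and 5.79, with replicate 1 above its mates and replicate 2 under the first quartile of the set, 5.72. Both UG26 lines and BFC012 lay under that quartile. Against the BMC9 mean the limit was 1.36-fold lower in each. It rests on replicate 1 of BMC9, as replicates 2 and 3 lay close to the quartile, so it is no firm lower bound. UG26.1B6 also differed from AFT024 by -0.72 (adjusted p = 0.0275) and from BMC10 by -0.68 (adjusted p = 0.0458), where all 3 lines lay under the first quartile of the set.

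Prelp encodes an SLRP whose basic amino end binds heparan sulfate. In OP9 it read 10.28, 10.31 and 10.16, against 5.25, 5.51 and 5.67 in BFC. This was a difference of 4.77 (SE 0.18), 27.4-fold higher (adjusted p = 8.8e-21). In BMC9 it read 8.03, 7.39 and 7.19, against 6.52, 6.60 and 6.39 in BMC10, 2.04-fold higher (adjusted p = 7.7e-05).

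Prelp read 7.52, 7.61 and 7.23 in 2012, against 6.65, 6.79 and 6.28 in AFT011, with no overlap (1.84-fold higher, adjusted p = 3.4e-04). Between the AM lines it read 7.49, 7.49 and 7.47 in AM14-1C4 and 6.55, 6.67 and 6.53 in AM30-3F4 (adjusted p = 1.5e-04). In AFT024 and BFC012 the arrays overlapped, and the difference was 0.43 (SE 0.18, adjusted p = 0.081).

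Fmod encodes fibromodulin, which binds collagen and takes part in its crosslinking. It was high in 1 line of each of 2 sets. In BMC9 it read 8.93, 8.54 and 9.02, against 6.21, 6.22 and 5.95 in BMC10, 6.51-fold higher with no overlap (adjusted p = 1.2e-12). In AM14-1C4 it read 9.02, 8.82 and 8.94, against 7.67, 7.26 and 7.40 in AM30-3F4, 2.79-fold higher (adjusted p = 2.0e-07). In the other 4 supportive pairs the arrays overlapped, with differences between -0.27 and 0.15.

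Lum encodes lumican, a keratan sulfate proteoglycan that limits fibril thickness in the cornea. In confluent cultures its signal was among the dimmest of each set. It lay between 3.45 and 3.78 in the first set and between 2.40 and 2.66 in OP9 and BFC. In 14F1-1, 2012, AFT011 and the AM lines it lay between 4.24 and 4.46. None of the 5 pairs passed for Lum. Of the other pairs within a set, only UG26.1B6 against BFC012 did (difference -0.21, adjusted p = 0.039), and both lay under the first quartile of the set. Podn encodes podocan, a member found in smooth muscle and kidney matrix, and it spanned 0.55 log2 units or less between the means of each confluent set. Replicate 1 of BFC012 read 8.04, against 6.89 and 6.79 in its mates. Podn was lower in UG26.3B5 than in BFC012 (difference -0.55, adjusted p = 0.0151), a comparison that includes that array. It was lower in 14F1-1 than in AM14-1C4 (difference -0.50, adjusted p = 0.0227). Podn also passed between 14F1-1 and 2012 (difference -0.50, SE 0.18, adjusted p = 0.0258). That call was lost without replicate 1 or 3 of either line, with adjusted p between 0.0513 and 0.103.

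Counted by pair, 1 of 9 members was higher and 0 lower in UG26.1B6 than in UG26.3B5, where 8.56% of all genes passed (4.34% higher, 4.22% lower). In AFT024 against BFC012, 1 was higher and 1 lower, where 28.5% of all genes passed (15.6% higher, 12.9% lower). In BMC9 against BMC10, 3 were higher and 1 lower, where 15.5% passed (7.28% higher, 8.18% lower). In OP9 against BFC, 4 were higher and 1 lower, where 34.4% passed (17.5% higher, 16.9% lower). In 2012 against AFT011, 4 were higher and 1 lower, where 27.6% passed (13.4% higher, 14.1% lower). Arrays did not overlap for 2 members and 23.2% of all genes in the UG26 pair, for 2 and 33% in AFT024 and BFC012, and for 4 and 25.9% in BMC9 and BMC10. They did not overlap for 7 members and 44.4% of all genes in OP9 and BFC, and for 7 and 39.9% in 2012 and AFT011.

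Among supportive lines, 4 members were higher and 0 lower in AM14-1C4 than in AM30-3F4, where 31.6% of all genes passed (15.9% higher, 15.8% lower). In 14F1-1 against 2012, 0 were higher and 4 lower, where 36.6% passed (18.1% higher, 18.5% lower). In the AM lines against 2012, 2 were higher and 5 lower, where 31.5% passed (16.2% higher, 15.3% lower). Arrays did not overlap for 8 members and 50.3% of all genes between the AM lines, for 5 and 48% in 14F1-1 and 2012, and for 6 and 23.6% in the AM lines and 2012. The median difference of the 9 genes, beside that of all genes, was 0.07 and 0.03 in the UG26 pair, 0.04 and -0.02 in AFT024 and BFC012, 0.62 and 0.03 in BMC9 and BMC10, 0.57 and 0.01 in OP9 and BFC, and 0.40 and 0.07 in 2012 and AFT011.

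**Figure D2:**
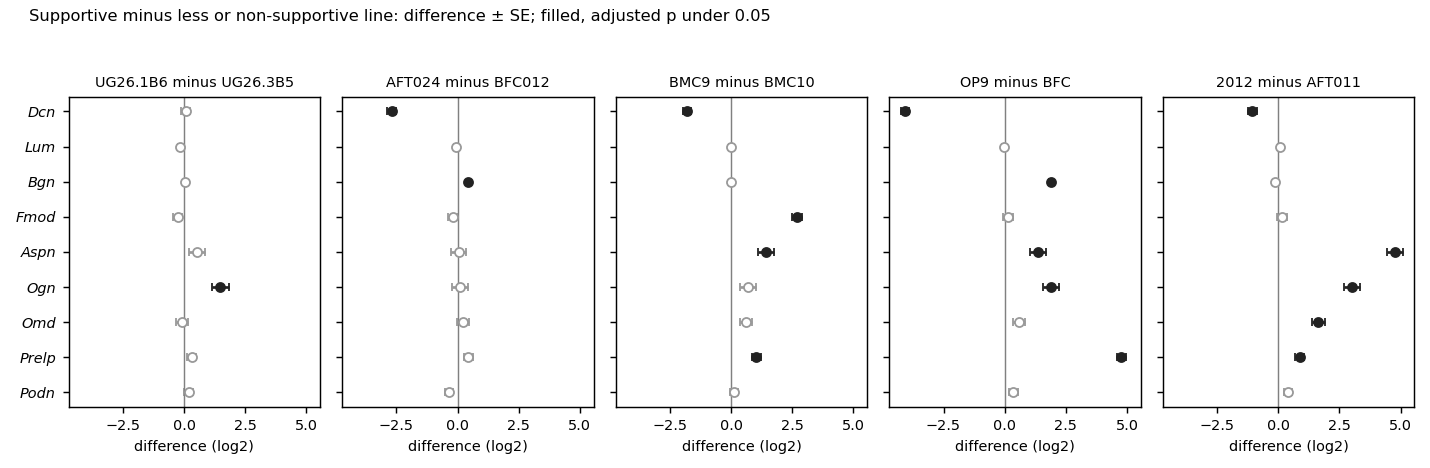
Difference in log2 signal, supportive minus less or non-supportive line (horizontal axis), of each SLRP gene (vertical axis) in 5 pairs, with bars for the standard error. Filled points passed the limma test at an adjusted p of 0.05; Dcn lies left of 0 in 4 pairs, and Prelp reaches 4.77 in OP9 and BFC.

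In the AM lines against 2012, Aspn differed by -4.47 (adjusted p = 8.9e-15), Ogn by -2.17 (adjusted p = 1.8e-07), Omd by -1.89 (adjusted p = 1.4e-08) and Dcn by -2.08 (adjusted p = 3.8e-13). Fmod was higher in the AM lines, by 1.09 (adjusted p = 4.0e-06), as was Bgn, by 0.35 (adjusted p = 2.1e-05). These values average 2 unlike lines. Fmod was higher by 1.83 in AM14-1C4 (adjusted p = 2.9e-09), while in AM30-3F4 it differed by 0.35 (adjusted p = 0.215). Dcn differed from 2012 by -0.49 in AM14-1C4 (adjusted p = 0.0273) and by -3.68 in AM30-3F4 (adjusted p = 8.4e-18). Aspn in AM14-1C4 and Omd in both AM lines lay under the first quartile of the set. Over both lines Prelp differed by -0.42 (adjusted p = 0.0404), with overlapping arrays, and lost its call in 9 of 15 alternatives, with adjusted p up to 0.177.

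When the means of 12 lines were compared by labelled support with tissue and normalization set in the model, 0 of 19938 genes passed limma's test and 950 had an unadjusted p under 0.05. BFC was alone in its set there and carries no weight, and OP9 was left out as the only calvarial line. Dcn differed by -1.36 (SE 0.81), Ogn by 1.43 (SE 0.54) and Prelp by 0.64 (SE 0.21), each with adjusted p = 0.895. Ogn and Prelp were the 2 members with an unadjusted p under 0.05.

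The support differences of members were also compared between pairs of the first set. For Dcn, the AGM pair exceeded the fetal liver pair by 2.76 (SE 0.25, adjusted p = 8.0e-11) and the bone marrow pair by 1.88 (adjusted p = 8.0e-07). The fetal liver difference minus the bone marrow difference was -0.89 (adjusted p = 0.00665), with an adjusted p of 0.0902 when only the arrays of those lines were fitted. For Fmod the fetal liver minus bone marrow value was -2.89 (adjusted p = 4.0e-10) and the AGM minus bone marrow value was -2.97 (adjusted p = 7.6e-10). For AGM minus fetal liver, 2 members were higher and 1 lower, where 24% of all genes passed (10.9% higher, 13.2% lower). For fetal liver minus bone marrow, 1 was higher and 3 lower, where 25.5% passed (14% higher, 11.5% lower). For AGM minus bone marrow, 1 was higher and 1 lower, where 12.6% passed (6.49% higher, 6.16% lower).

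The genes that SLRPs work with were counted from lists of known roles. The counts stand beside the shares of all genes that passed: 28.5% in AFT024 against BFC012, 15.5% in BMC9 against BMC10, 34.4% in OP9 against BFC, 27.6% in 2012 against AFT011, 8.56% in the UG26 pair and 31.6% between the AM lines. Of 12 fibrillar and associated collagens, 8 were higher and 1 lower in AFT024 than in BFC012, 8 were higher and 0 lower in BMC9 than in BMC10, and 10 were higher and 0 lower in OP9 than in BFC. Col6a3, a chain of collagen VI, was higher by 3.32 in AFT024 and by 4.42 in OP9, and Col1a2, a chain of collagen I, by 2.91 and 3.26. In 2012 against AFT011, 4 were higher and 0 lower, with Col1a2 at 4.41, and in UG26.1B6 against UG26.3B5, 2 were higher and 1 lower. Between the AM lines, 2 were higher and 5 lower in AM14-1C4. The median difference of these collagens was 0.63 in AFT024 and BFC012, 0.62 in BMC9 and BMC10, 0.90 in OP9 and BFC, 0.34 in 2012 and AFT011, 0.25 in the UG26 pair and -0.09 between the AM lines. Of 8 stroma markers, 3 of them in the collagen list, 6 were higher in AFT024 than in BFC012 and 7 in OP9 than in BFC.

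Of 22 genes of chondroitin and dermatan sulfate synthesis, 10 were higher and 1 lower in AFT024 than in BFC012, 8 were higher and 2 lower in BMC9 than in BMC10, and 16 were higher and 0 lower in OP9 than in BFC. Chst11, which sulfates chondroitin, was higher by 2.29 in AFT024, and Csgalnact1, a chondroitin chain synthesis enzyme, by 1.35 there and by 2.19 in OP9. In 2012 against AFT011, 7 were higher and 7 lower, in the UG26 pair 2 were higher and 1 lower, and between the AM lines 4 were higher and 9 lower in AM14-1C4. Of 10 keratan sulfate genes, 5 were higher and 2 lower in AFT024, 6 higher and 0 lower in BMC9, and 4 higher and 2 lower in OP9, with the sulfotransferase Chst1 higher by 2.52 in AFT024 and by 1.38 in OP9. In 2012 against AFT011, 1 was higher and 6 lower, with B4galt4 at -2.65. In the UG26 pair 0 were higher and 2 lower, and between the AM lines 1 was higher and 1 lower.

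Of 12 TGF-beta pathway genes that SLRPs bind or modulate, 7 were higher and 0 lower in BMC9 than in BMC10, with Bmp4 at 2.01 and Tgfb2 at 1.69. In AFT024 against BFC012, 4 were higher and 1 lower, in OP9 against BFC 4 were higher and 0 lower, and in the UG26 pair 2 were higher and 1 lower. In 2012 against AFT011, 3 were higher and 5 lower, and between the AM lines 5 were higher and 6 lower in AM14-1C4. Of 12 receptors that soluble SLRPs are reported to engage, 2 were higher and 4 lower in AFT024 than in BFC012, with Egfr at -1.49 and Igf1r at -0.87. In 2012 against AFT011, 2 were higher and 5 lower, with Egfr at -1.40. In BMC9 against BMC10, 1 was higher and 3 lower, in OP9 against BFC 3 and 5, in the UG26 pair 3 and 1, and between the AM lines 4 and 2. Of 13 collagen processing genes measured, 7 were higher and 1 lower in AFT024 and 8 were higher and 3 lower in OP9, with Pcolce2 at -4.06 there, while in BMC9 2 were higher and 1 lower, in 2012 5 and 2, in UG26.1B6 3 and 0, and in AM14-1C4 against AM30-3F4 4 and 6. Of 23 other proteoglycan core proteins, 6 were higher and 3 lower in AFT024, with Cspg4 at 3.75 and Gpc1 at 3.29, and 10 were higher and 1 lower in OP9, with Vcan at 2.96, while in BMC9 5 were higher and 1 lower, in 2012 7 and 4, in UG26.1B6 1 and 3, and in AM14-1C4 against AM30-3F4 3 and 5. Of 8 other SLRP family genes measured, between 0 and 2 passed in each of the 5 pairs, and among them Podnl1 was higher by 0.72 in AFT024 and Ecm2 by 1.01 in OP9.

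In sorted stroma Dcn was again lower in AFT024. With KLS cells it read 6.46, 6.40 and 5.51 in AFT024+KLS, against 10.19, 10.80 and 11.30 in BFC012+KLS. The groups did not overlap, and the difference was -4.64 (SE 0.89, 24.9-fold lower, adjusted p = 0.00632). Lum, dim in all confluent lines, read 3.46, 3.36 and 3.5 in AFT024+KLS, against 5.48, 5.35 and 6.37 in BFC012+KLS (difference -2.29, adjusted p = 0.00735). AFT024+KLS lay under the first quartile of that set, 4.63, so Lum was at least 2.14-fold lower there. Without KLS cells Lum read 3.30, 3.32 and 3.35 in AFT024-KLS, against 3.28, 5.16 and 5.39 in BFC012-KLS.

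Bgn read 11.09, 10.95 and 10.83 in AFT024+KLS, against 9.96, 9.97 and 10.02 in BFC012+KLS, 1.97-fold higher (adjusted p = 0.0113). Prelp read 8.94, 7.64 and 6.94 in AFT024+KLS, against 5.81, 5.90 and 6.68 in BFC012+KLS, with no overlap (difference 1.71, SE 0.48, adjusted p = 0.0393). The call for Prelp was lost without replicate 1 of AFT024+KLS, where it differed by 1.16 (adjusted p = 0.0849), and also without replicate 2 of that group or replicate 1 or 2 of BFC012+KLS (adjusted p between 0.0834 and 0.14). In all, 2 members were higher and 2 lower, where 11.6% of all genes passed (6.09% higher, 5.52% lower), and arrays did not overlap for 8 members and for 32.1% of all genes. The mean of the epithelial and mesothelial markers lay between 5.46 and 5.66 in AFT024+KLS, against 5.77 to 6.04 in BFC012+KLS, and its part was not tested.

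Without KLS cells, replicate 1 of each line stood apart. Dcn read 5.81, 7.97 and 8.35 in AFT024-KLS, against 8.31, 11.79 and 11.76 in BFC012-KLS. In both groups replicate 1 was the low array, so the groups overlapped, and the difference of -3.24 (SE 0.89) had an adjusted p of 0.0506. With the replicate number as a block over all 12 sorted arrays, Dcn passed (adjusted p = 0.0223). Deviations of arrays with the same number correlated between these 2 groups (r of 0.47 to 0.67), but those of unlike numbers reached 0.50. In comparisons that include a group with KLS cells, the same numbers gave r between -0.10 and 0.14. The block is therefore not borne out as a pairing of all these arrays. Bgn read 10.16, 11.03 and 11.00 in AFT024-KLS, against 9.49, 9.87 and 9.96 in BFC012-KLS, 1.94-fold higher with no overlap (adjusted p = 0.018). It was the 1 member of 9 that passed, where 7.32% of all genes did (3.51% higher, 3.81% lower) and arrays of 25.2% did not overlap, and its call was lost without replicate 2 or 3 of AFT024-KLS (adjusted p = 0.0774 and 0.0808).

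Ogn was low in replicate 1 of both groups, as Dcn was. It read 6.82, 10.07 and 10.07 in AFT024-KLS, against 6.77, 9.27 and 9.14 in BFC012-KLS. Aspn read 5.13, 8.51 and 8.62 in AFT024-KLS, against 5.67, 5.80 and 5.86 in BFC012-KLS. Omd read 4.86, 7.42 and 7.35 in AFT024-KLS, against 5.22, 5.45 and 4.99 in BFC012-KLS. For Aspn and Omd replicates 2 and 3 of AFT024-KLS were the high arrays and replicate 1 the low one, while BFC012-KLS varied little. Replicate 1 of AFT024-KLS was the lowest of its group for 9 of 9 members and that of BFC012-KLS for 8. The stroma marker mean was 7.33 in that BFC012-KLS array and 8.11 at the highest in its group.

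Leaving out replicate 1 of both groups grown without KLS cells was tried after the data were seen. Then 6 members passed between AFT024-KLS and BFC012-KLS: Dcn at -3.61 (adjusted p = 1.9e-04), Lum at -1.94, Fmod at -0.55, Bgn at 1.10, Ogn at 0.86 and Omd at 2.16. With replicate 1 of AFT024+KLS also left out, 8 passed, Aspn at 2.74 (adjusted p = 7.4e-08) among them. Both choices were made with the members' values in view, so these calls are no independent support.

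**Figure D3:**
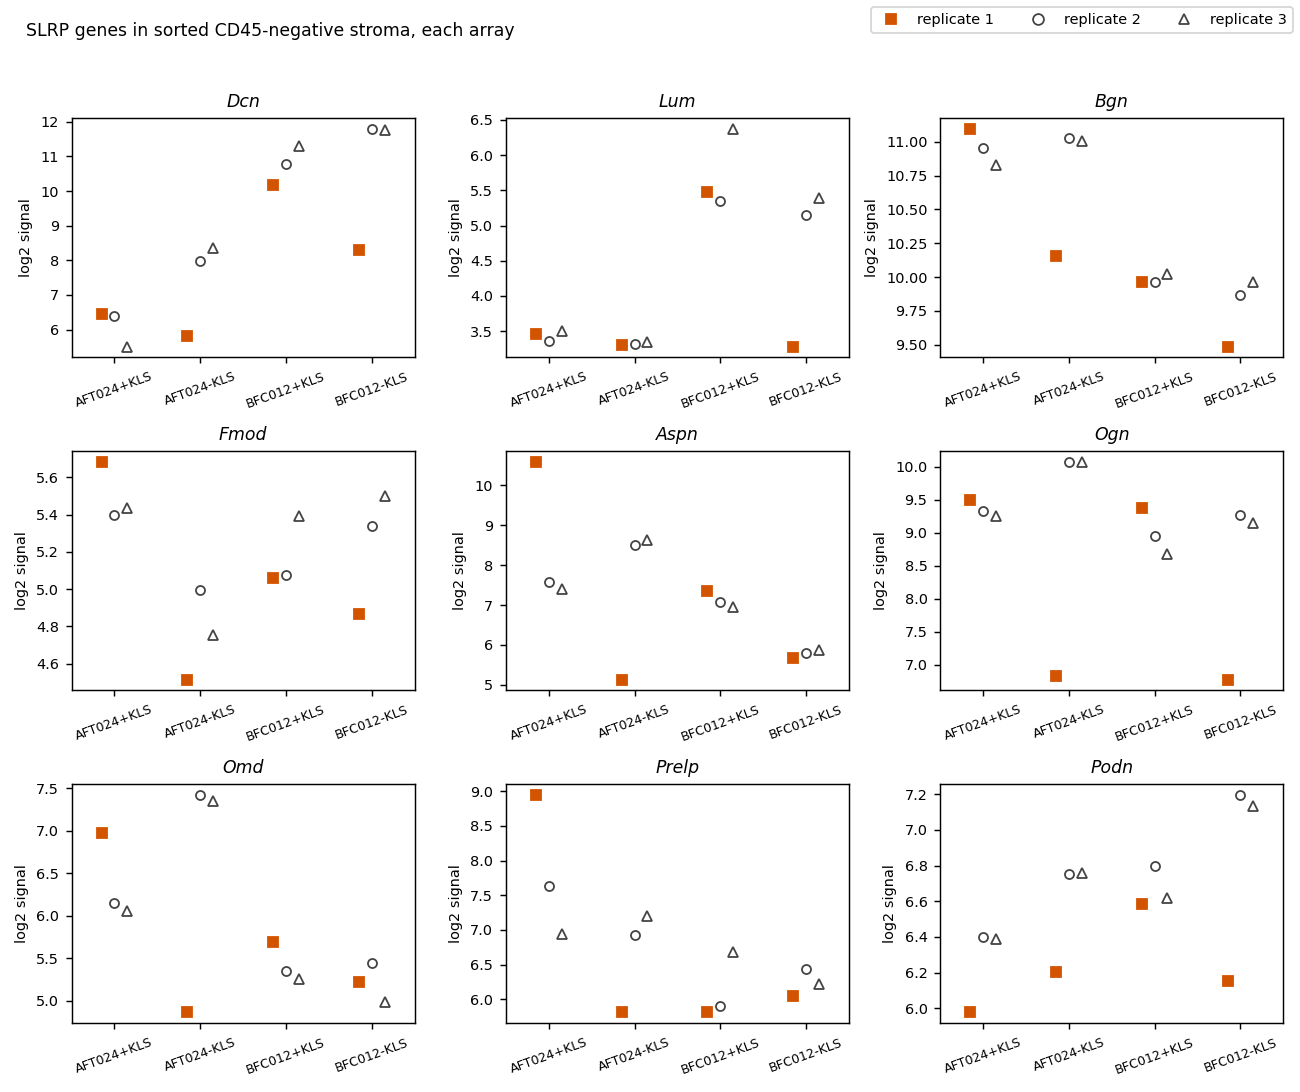
Log2 signal of each SLRP gene (vertical axis) on the 12 arrays of sorted stroma (horizontal axis, 4 groups), with symbols for replicates 1, 2 and 3. Replicate 1 of AFT024-KLS is the lowest of its group for 9 of 9 genes, and Dcn in AFT024+KLS lies between 5.51 and 6.46, against 10.19 to 11.30 in BFC012+KLS.

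Adding KLS cells gave no member that passed on all arrays. In AFT024 0 of 9 passed, where 0.351% of all genes did (0.296% higher, 0.0552% lower). There 1845 genes and the members Fmod and Prelp had an unadjusted p under 0.05 in limma. In BFC012 0 passed, where 0.883% of all genes did (0.612% higher, 0.271% lower), and 2032 genes and Lum had an unadjusted p under 0.05. The 2 BFC012 groups overlapped for Lum, and replicate 1 of BFC012-KLS was the low array (difference 1.12, SE 0.45, adjusted p = 0.413). For the difference between the 2 responses 0 passed, where 0.0401% of all genes did (0.01% higher, 0.0301% lower), and 1565 genes and Fmod had an unadjusted p under 0.05. Fmod read 5.68, 5.40 and 5.43 in AFT024+KLS, against 4.51, 5.0 and 4.75 in AFT024-KLS, with no overlap (difference 0.75, SE 0.18, adjusted p = 0.119).

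Dcn in AFT024 differed with KLS cells by -1.25 (SE 0.89, adjusted p = 0.752), and by -2.04 (adjusted p = 0.0137) without replicate 1 of both groups grown alone, as chosen after the data were seen. Aspn read 10.59, 7.57 and 7.40 in AFT024+KLS, against 5.13, 8.51 and 8.62 in AFT024-KLS, and replicate 1 was the highest array with KLS cells and the lowest without them. Its difference was 1.10 (SE 0.93, adjusted p = 0.806) on all arrays and -1.08 without the 3 arrays that stood apart (chosen after the data were seen). In BFC012 Aspn read 7.35, 7.07 and 6.95 with KLS cells, against 5.67, 5.80 and 5.86 without, and the groups did not overlap (difference 1.35, SE 0.93, adjusted p = 0.718).

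Across the 17 groups, with the mean of each set subtracted, the profiles of the chromosome 13 neighbours were alike: r was 0.73 for Omd and Ogn, 0.68 for Aspn and Omd and 0.54 for Aspn and Ogn. Dcn and Lum on chromosome 10 had r = 0.49, with Lum dim in all confluent lines, and Fmod and Prelp on chromosome 1 had r = 0.25. The median r was 0.54 over the 5 pairs on one chromosome, which include all pairs of the chromosome 13 genes, and 0.03 over the other pairs. Some of those others were as high as Dcn and Lum: r was 0.51 for Dcn and Podn and 0.49 for Ogn and Prelp. In 14 of 36 pairs r was under 0. Dcn and Prelp were the most opposed, with r = -0.57. These groups share lines, sets and 3 arrays that stood apart, so the values describe the groups only.

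**Figure D4:**
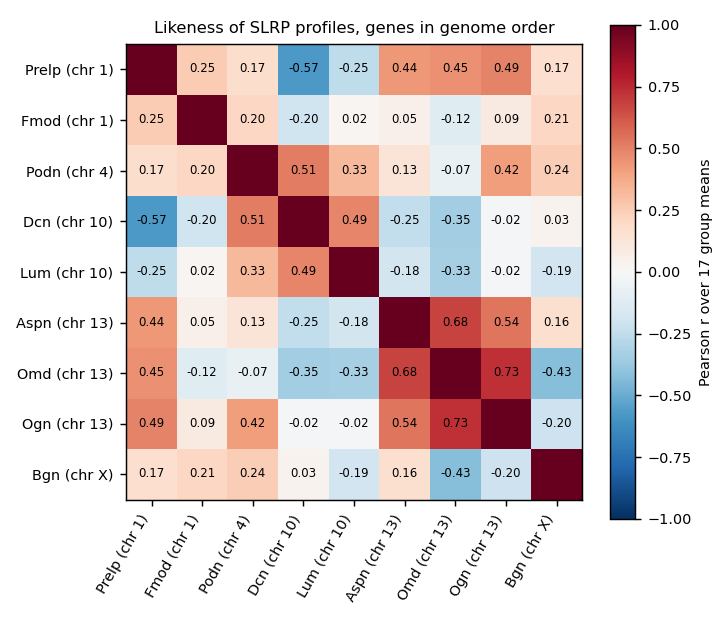
Pearson correlation (colour and figures) between each pair of SLRP genes over the 17 group means after the mean of each normalization set was subtracted, with genes in genome order on both axes. The block of chromosome 13 genes holds r of 0.54 to 0.73, and Dcn and Prelp have r of -0.57.

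By the same measure over all genes that varied, the gene most like Dcn was Nfib (r = 0.93), a transcription factor, and that most like Prelp was Cdo1 (r = 0.92), followed by Cebpa (r = 0.92). Saa3 was most like Lum (r = 0.92), Bhlhb9 most like Bgn (r = 0.93) with Sulf2 next (r = 0.92), and Cpq most like Ogn (r = 0.88). Syndig1 was most like Aspn (r = 0.85) and Kcnj2 most like Omd (r = 0.85). Rac3 was most like Fmod (r = 0.84) and Pdcd4 most like Podn (r = 0.80). These are the highest values among 1707 genes, so they describe these groups only. Single groups weigh heavily in some. The centred mean of Bgn was -3.58 in 14F1-1, and that of Prelp was 2.39 in OP9 and -2.39 in BFC. For Lum it lay between -0.15 and 0.07 in the confluent groups and between -0.95 and 1.46 in the sorted groups.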

How the data were processed

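RNA from 13 confluent mouse stromal lines and 4 groups of sorted stroma was hybridised to Affymetrix arrays, 51 in 17 groups of 3, grouped by the labels. The deposited values are log2 signals per probe set, normalized by the authors. The submitters' processing notes name RMA and Partek, and their versions are not given in the sources used here. Array quantiles matched within 4 sets and differed between them, so comparisons stay within a set. Of 35556 probe sets, 21789 name 1 gene; for 999 genes with several, the one with the highest mean was used, which left 19938 genes, with no filter on dim signal.

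Tests used limma 3.58.1 under R 4.3.3 (two-sided, moderated statistics, Benjamini-Hochberg over all genes, threshold 0.05) in 1 fit to the 39 confluent arrays, 1 to the 12 sorted arrays and 1 to the means of 12 lines. The fits were checked on simulated data. The R package data.table (1.17.8) read the files, and Python 3.11.15 with matplotlib 3.10.9 made the plots. Samples with the same replicate number deviated together in every pair of numbers only for the UG26 pair, the BMC pair and the sorted pair without KLS cells, by correlation of deviations over 0.1. All 9 members were tested in every comparison, though not every member result is printed. Of each other list, counts were given, with members of the largest differences past the threshold. Per member, the genes most alike over the 17 centred group means were drawn from genes with an SD of at least 0.5. Promoter windows are from RefSeq (GRCm38.p6), and only the 250 bases before the start were used. Alternatives were a replicate block, the mean of probe sets, cyclic loess within sets, dim genes left out, a trended robust prior, only the arrays compared, no set or no tissue term for support across lines, and leaving out each array (each line for support). Leaving out the sorted arrays that stood apart was added after seeing the data. The members and gene lists were chosen with earlier results of these data known.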

Additional observations from a re-analysis of the deposited data

Results flagged for a closer look

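Supportive minus less or non-supportive differences that themselves differed between the 3 pairs of 1 normalization set, by limma's test, were drawn out for a closer look. For the AGM minus the fetal liver pair these were Dcn at 2.76 (adjusted p = 8.0e-11), Bgn at -0.38 (adjusted p = 0.00337) and Ogn at 1.40 (adjusted p = 0.0263). For the fetal liver minus the bone marrow pair they were Dcn at -0.89 (adjusted p = 0.00665), Bgn at 0.43 (adjusted p = 0.00102), Fmod at -2.89 (adjusted p = 4.0e-10) and Aspn at -1.40 (adjusted p = 0.0213). For the AGM minus the bone marrow pair they were Dcn at 1.88 (adjusted p = 8.0e-07) and Fmod at -2.97 (adjusted p = 7.6e-10). The Aspn value was -0.60 without replicate 1 of BMC9 (adjusted p = 0.0779), and the Ogn value was 0.98 without replicate 3 of AFT024 (adjusted p = 0.121).

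On every array Bgn was higher in AFT024 than in BFC012 (difference 0.44) and in OP9 than in BFC (1.88), and lower in 2012 than in AFT011 (-0.11), a difference that did not pass (adjusted p = 0.231). These lie in separate normalization sets and their difference was not tested.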

How the results depend on the processing

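Of 46 member differences that passed, 38 kept their call under every other setting listed in the methods, and none changed sign. Of the 580 values behind them, 547 kept the call and 33 did not. Of 1383 values that had not passed, 40 did under an alternative. These counts of values leave out the trended robust prior, under which all 153 values kept their sign and their call or lack of one. The causes of lost and gained calls were not tested.

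The replicate block changed 1 count by over 1.5 times: 2 members passed between AFT024-KLS and BFC012-KLS, against 1 without it. It took the call from Prelp between AFT024+KLS and BFC012+KLS (adjusted p = 0.0616) and between the AM lines and 2012 (adjusted p = 0.0516). Between AFT024-KLS and BFC012-KLS, 2 members passed with dim genes left out and 0 with only the compared arrays fitted. With only the compared arrays, 1 passed for KLS cells in BFC012 and 2 for the fetal liver minus bone marrow difference. Leaving out 1 array gave 1 to 2 members in the UG26 pair. It gave 0 to 4 between AFT024-KLS and BFC012-KLS, and 6 without replicate 1 of both. The same choice gave 2 for KLS cells in AFT024, against 0 when 1 array was left out. Without those arrays and replicate 1 of AFT024+KLS, 8 members passed between AFT024-KLS and BFC012-KLS, 7 between AFT024+KLS and BFC012+KLS, 5 for KLS cells in AFT024, 3 for KLS cells in BFC012 and 3 for the difference in response. Both ways of leaving out several arrays were chosen after seeing the data.

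In 36 results, none of which had passed, the sign changed under some alternative. Ranges with a single array left out, or a single line for support, follow. For 14F1-1 minus 2012, the range was Fmod (-0.091 to 0.044). For AFT024 minus BFC012, the ranges were Aspn (-0.054 to 0.21), Ogn (-0.27 to 0.51) and Podn (-0.58 to 0.048). For AFT024+KLS minus AFT024-KLS, the ranges were Aspn (-0.045 to 1.70), Bgn (-0.058 to 0.38), Ogn (-0.71 to 0.92) and Omd (-0.99 to 0.29). For AFT024-KLS minus BFC012-KLS, the range was Ogn (-0.22 to 1.67). For AM14-1C4 minus AM30-3F4, the range was Lum (-0.071 to 0.0063). For BFC012+KLS minus BFC012-KLS, the ranges were Dcn (-1.01 to 0.73), Fmod (-0.24 to 0.073), Ogn (-0.21 to 1.04), Podn (-0.50 to 0.023) and Prelp (-0.38 to 0.052). For BMC9 minus BMC10, the ranges were Bgn (-0.062 to 0.059) and Lum (-0.10 to 0.046). For OP9 minus BFC, the ranges were Fmod (-0.070 to 0.28) and Lum (-0.10 to 0.027). For UG26.1B6 minus UG26.3B5, the ranges were Dcn (-0.059 to 0.18) and Omd (-0.17 to 0.0048). For the fetal liver minus bone marrow difference, the ranges were Lum (-0.12 to 0.029), Ogn (-1.04 to 0.056) and Omd (-0.77 to 0.054). For the AGM minus bone marrow difference, the ranges were Bgn (-0.0065 to 0.11) and Podn (-0.055 to 0.20). For the AGM minus fetal liver difference, the ranges were Fmod (-0.41 to 0.15) and Prelp (-0.31 to 0.16). For the difference in response to KLS cells, the ranges were Aspn (-1.39 to 0.35), Bgn (-0.27 to 0.17), Ogn (-1.31 to 0.58), Omd (-1.21 to 0.073) and Podn (-0.34 to 0.18). For support across lines, the ranges were Bgn (-0.62 to 0.39) and Podn (-0.014 to 0.24). Other sign changes were Fmod between 14F1-1 and 2012 under cyclic loess (0.011), and Lum (0.42) and Bgn (0.12) for support without the set term. Without the 3 arrays that stood apart, KLS cells in AFT024 gave Bgn -0.13, Aspn -1.08 and Ogn -0.78, and in BFC012 Dcn -1.01 and Ogn -0.21, and the difference in response was -0.20 for Bgn and 0.14 for Podn.

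Each group has 3 arrays, which limits the precision. Lum lay under the limit for dim genes, which the other 8 members and 12503 genes in all passed, and differences near background are not detectable at this signal.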
